A study of Mus musculus with 24 samples.

Results

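The 10 genes described here encode RNA-binding proteins and splicing regulators of neural development: Ptbp1, Ptbp2, Elavl1, Elavl2, Elavl3, Elavl4, Nova1, Nova2, Rbfox2 and Srrm4. They were taken by name, with earlier results of these data known, from the 21909 gene symbols of the RNAseq tables. All 10 were found there. The study mapped nucleolar associated domains (NADs), the stretches of chromatin in contact with the nucleolus, in mouse embryonic stem cells (ESCs) and in neural progenitor cells (NPCs) made from them. RNAseq of poly(A)-selected RNA came from 3 ESC and 3 NPC samples, labelled as replicates. The study does not say whether each replicate was a separate culture. The main tests below treat the replicates as independent.

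The ESCs of the RNAseq were of the E14 line and untreated. They were grown without feeder cells in 2i medium, which held 1000 U/ml LIF, 3 µM CHIR99021 and 1 µM PD0325901. The NPCs came from the same line in culture. They were made through embryoid bodies in medium with 10% serum over 8 days, with 2 µM retinoic acid in the last 4 days. Both groups are thus bulk cultures of 1 cell line, in which fewer cells of a type and less RNA per cell cannot be told apart. The cell types were deposited in separate tables and share no labelled batch, so a batch and the cell type cannot be told apart either. The NADs were mapped in other cells, namely transgenic ESC lines derived from E14 and NPCs made from them. Those cells were treated with doxycycline and Shield1.

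The deposited values were RPKM, that is, reads scaled to the length of the gene in kilobases and to the depth of the sample in M (mega) reads, in which the kilobases were those of the whole gene, introns included. The members differ widely in intron content: the genomic span was 2.18 times the exon length in Ptbp1 and 28.0 times in Rbfox2. Between 94.3% and 94.4% of the values above 0 gave whole reads when multiplied by that span and 1 depth for each sample. The tolerance was 0.05 reads plus 1e-05 of the reads, so the check is weak for genes with very many reads. Of the values under 200 reads, 95.8% to 96.0% were whole within 0.05 reads. Read counts could therefore be recovered in all 6 samples for 20287 of the 21454 genes tried, among them all 10 members. The recovered depth was 34.1 M, 33.7 M and 30.8 M reads in ESC replicates 1 to 3 and 30.2 M, 27.3 M and 32.3 M reads in NPC replicates 1 to 3. Levels below are reads per kilobase of exon and per M reads of depth unless another scale is named, so that genes can be compared per length.

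ESC replicate 3 stood apart from the other ESC samples. Over 13486 genes, 736 (5.46%) differed by more than 2-fold between ESC replicates 1 and 2, whereas 3008 (22.3%) did between replicates 1 and 3 and 2825 (20.9%) between replicates 2 and 3. Pairs of NPC samples differed in 285 to 373 genes (2.11% to 2.77%). The difference of replicate 3 went with transcript length: its median log2 difference from replicates 1 and 2 was 0.42 in the genes with the shortest exon length and -0.78 in those with the longest, each class holding 1 gene in 4. The summed deposited RPKM of mitochondrial transcripts was 16103, 15174 and 8949 in ESC replicates 1 to 3. Actb and Gapdh went the other way and were highest in replicate 3. Of the members, Nova2 stood at 28.2% of the mean of ESC replicates 1 and 2 in replicate 3, Srrm4 at 37.6%, Ptbp1 at 45.9%, Rbfox2 at 49.4%, Ptbp2 at 56.5% and Elavl2 at 66.2%. Elavl1, Elavl3, Elavl4 and Nova1 stood between 89.1% and 114% of it. Results are therefore given with and without this sample, and the part of the sample's handling in them was not tested.

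The labels were checked against marker genes, on the scale of the deposited RPKM. Counts of called genes on that scale are not given for the marker lists. Most markers tested met the filter of the limma fit, 1 RPKM in at least 3 samples, in all samples of 1 cell type but not of the other. The filter thus favoured their direction. For the neural progenitor and neuron lists, counts on recovered reads are given for markers with at least 10 reads in every sample. Pou5f1, a factor that maintains pluripotency, stood at 130, 136 and 202 RPKM in ESCs against 0.0558, 0.0386 and 0.0651 RPKM in NPCs. The summed RPKM of 8 pluripotency markers was 373, 378 and 418 in ESCs and 9.28, 9.36 and 8.83 in NPCs. Among 10 neural progenitor markers, Nes, a filament protein of neural progenitors, stood at 3.79, 3.25 and 3.33 RPKM in ESCs and 29.8, 32.7 and 29.4 RPKM in NPCs, and Sox3 at 0.341, 0.230 and 0.283 against 7.01, 8.89 and 10.5 RPKM. Pax6, the defining factor of the radial glia this protocol is meant to yield, stood at 0.0134, 0.0167 and 0.00457 RPKM in ESCs and at 1.55, 1.42 and 1.67 RPKM in NPCs. Sox2 went the other way, at 157, 154 and 142 RPKM in ESCs and 6.82, 8.56 and 9.91 RPKM in NPCs. It was the most abundant of the 10 in ESCs, whereas Vim was in NPCs, and their summed RPKM was 198, 197 and 192 in ESCs and 96.2, 104 and 109 in NPCs. Per exon length the sum was also lower in NPCs, at 236, 236 and 235 in ESCs and 164, 175 and 184 in NPCs. Not divided by length, the sum was higher in NPCs: the reads per M reads were 761, 773 and 753 in ESCs and 913, 954 and 1002 in NPCs. Sox2 made up much of the ESC sums divided by length, at 157, 154 and 142 on both scales. Of the 10 markers, 7 had at least 10 recovered reads in every sample. In the limma fit on recovered reads, 4 of these were called higher in NPCs and 1 lower, at an adjusted p below 0.05. Of all genes of that kind, 40.2% were called higher and 28.9% lower.

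Markers of other cell types moved as well. Among 12 markers of postmitotic neurons, Dlg4 stood at 0.0361, 0.0313 and 0.0206 RPKM in ESCs and 3.89, 4.03 and 4.11 RPKM in NPCs, and Ina at 1.02, 1.17 and 0.792 against 3.49, 2.72 and 3.05 RPKM. Stmn2 was lower in NPCs, at 4.67, 4.62 and 6.55 against 0.327, 0.283 and 0.307 RPKM. Tubb3, which met the filter in every sample and was the most abundant by RPKM in all but NPC replicate 2, where Dlg4 was, fell by 0.69 on the log2 scale, and the summed RPKM of the 12 genes was 14.3, 15.6 and 17.5 in ESCs and 17.9, 15.5 and 17.1 in NPCs. Per exon length, the sum over the 11 genes with recovered reads was 88.7, 95.7 and 114 in ESCs and 76.0, 64.8 and 73.2 in NPCs. This sum leaves out Dlg4, which had no recovered reads and was higher in NPCs. Of the 11 genes, 7 had at least 10 reads in every sample. In the limma fit on recovered reads, 5 of these were called higher in NPCs and 2 lower, with or without ESC replicate 3. With all samples, 40.2% of all genes of that kind were called higher and 28.9% lower. Dcx, a microtubule protein of young neurons, had 0 reads in every ESC sample and stood at 1.05, 0.821 and 0.874 RPKM in NPCs. The summed RPKM of 8 endoderm markers was 0.573, 0.518 and 0.485 in ESCs and 23.2, 23.3 and 21.8 in NPCs, where Gata6 was the most abundant, and per exon length the sum over the 6 genes with recovered reads was 1.86, 1.81 and 1.44 in ESCs and 132, 129.7 and 130.1 in NPCs. That of 8 mesoderm markers went from 2.53, 2.50 and 2.12 to 26.8, 33.2 and 33.2, with Col1a1 the most abundant in NPCs, at 19.1, 25.9 and 26.0 RPKM. Per exon length the mesoderm sum was 23.1, 22.7 and 18.2 in ESCs and 83.8, 98.5 and 98.2 in NPCs, a smaller difference. The mesoderm markers did not all go one way: Pecam1, an endothelial adhesion protein and the most abundant of them in ESCs, stood at 1.21, 1.17 and 0.929 RPKM in ESCs and 0.496, 0.407 and 0.396 RPKM in NPCs, and T met the filter of 10 recovered reads only in ESCs. None of the 8 glia markers reached the filter of the fit on RPKM. No marker of these lists was at 0 in all 6 samples. By these levels the NPC samples carried markers of neural progenitors, neurons, endoderm and mesoderm, and the part of these mixtures in the results on the members was not tested.

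Splicing regulators bind short sequence elements in pre-mRNA and favour or repress the use of nearby exons, and each family often has a broadly expressed member beside members restricted to neurons. In neural development, Ptbp1 is known to give way to Ptbp2, which releases exons that Ptbp1 represses, and Nova, Rbfox, neuronal Elavl and Srrm4 proteins then promote exons used in neurons. Ptbp1 acts on Ptbp2 itself by causing the skipping of an exon whose loss exposes the transcript to decay.

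Which of these genes differ between the cell types was asked with limma, over all genes of the tables. On recovered reads, 6 members were called higher in NPCs (Ptbp2, Elavl3, Elavl4, Nova1, Nova2 and Srrm4), 1 was called lower (Elavl2), and 3 were not called (Ptbp1, Elavl1 and Rbfox2), at an adjusted p below 0.05. All 10 had at least 10 reads in every sample, so that none met the filter of 10 reads in at least 3 samples through 1 cell type alone. Of the 13486 genes tested, 46.4% were called higher and 27.8% lower, so a call in itself was common. Among the 10692 genes that like the members had at least 10 reads in every sample, 40.2% were called higher and 28.9% lower, with a median log2 difference of 0.19, and without ESC replicate 3 these were 47.2%, 39.5% and 0.12. Such genes leave out those near 0 in 1 cell type. With a log2 difference of at least 1 in size as an added rule, the members' counts were again 6 and 1, beside 37.3% higher and 17% lower over all genes. The median log2 difference of the 10 members was 1.36, beside 0.40 over all genes. Without ESC replicate 3, 7 members were called higher, beside 52% of genes, and 2 lower, beside 36.3%, with a median of 1.04 beside 0.29. The differences went with exon length also without that sample: the median log2 difference of NPCs from ESC replicates 1 and 2 was -0.10, 0.18, 0.37 and 0.64 in the 4 classes from the shortest to the longest exon length. The longest class held 8 members and the next class 2 (Ptbp1 and Elavl4), so the median over all genes is not that of genes of the members' length, and the part of length in the members' differences was not tested.

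The fit on deposited RPKM, which are divided by the whole gene span, tested fewer genes. Its filter of 1 RPKM in at least 3 samples kept 4 members, Ptbp1, Ptbp2, Elavl1 and Rbfox2, and removed the other 6. Ptbp2 and Rbfox2 met it in all NPC samples but not in all ESC samples, so the count of members called on this scale supports no direction. In this limma fit on log2(RPKM + 1), Ptbp2 and Rbfox2 were called higher, beside 36.9% of 7835 genes, and 0 members were called lower, beside 33.3%. Without ESC replicate 3 the same fit called 2 members higher, beside 43.9% of genes, and 1 member (Ptbp1) lower, beside 44%. On both scales the members' calls thus stood in a comparison in which most genes differed, and nothing is called particular to the list.

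**Figure D1:**
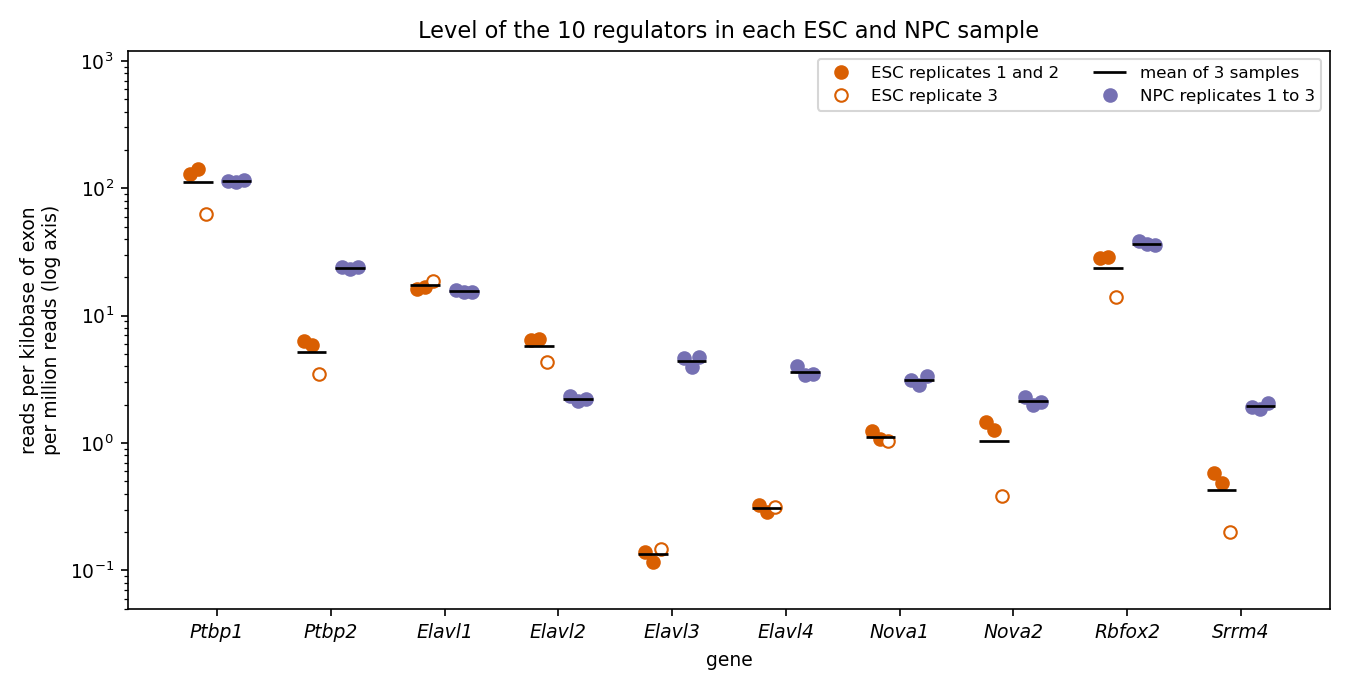
Level of each of the 10 genes in each RNAseq sample, in reads per kilobase of exon and per M reads of depth on a log axis; points are samples (ESC orange, with replicate 3 open, and NPC violet) and black lines are means of 3 samples. Elavl3 stood between 0.116 and 0.146 in ESCs and between 3.95 and 4.71 in NPCs, whereas for Ptbp1 the NPC samples (112 to 116) lay between ESC replicate 3 (62.3) and the other ESC samples (129 and 142).

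Within ESCs the order of the mean levels was Ptbp1 (111), Rbfox2 (23.8), Elavl1 (17.3), Elavl2 (5.76), Ptbp2 (5.23), Nova1 (1.12), Nova2 (1.04), Srrm4 (0.425), Elavl4 (0.309) and Elavl3 (0.134). The samples of neighbouring genes overlapped for Rbfox2 and Elavl1, Elavl2 and Ptbp2, Nova1 and Nova2, Nova2 and Srrm4, and Srrm4 and Elavl4. Without ESC replicate 3, Nova2 (1.36) stood above Nova1 (1.16), and the order was otherwise the same. In NPCs the order was Ptbp1 (114), Rbfox2 (36.8), Ptbp2 (23.8), Elavl1 (15.6), Elavl3 (4.44), Elavl4 (3.63), Nova1 (3.13), Elavl2 (2.24), Nova2 (2.12) and Srrm4 (1.94). There the overlapping neighbours were Elavl3 and Elavl4, Elavl2 and Nova2, and Nova2 and Srrm4. Ptbp1 and Rbfox2, the first of both orders, are known from many tissues besides the nervous system.

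Ptbp1, the polypyrimidine tract binding protein of most non-neuronal cells, lies on chromosome 10 from 79854427 to 79864771 (GRCm38). Its level was 129, 142 and 62.3 in ESC replicates 1 to 3 and 115, 112 and 116 in NPC replicates 1 to 3. The NPC samples lay inside the range of the ESC samples, below replicates 1 and 2 and above replicate 3. The log2 difference on recovered reads was 0.13 ± 0.31 (SE) with all samples and -0.25 ± 0.05 without ESC replicate 3, with limma adjusted p of 0.721 and 0.000646. The direction of Ptbp1 therefore rested on 1 library: with it Ptbp1 was not called, and without it Ptbp1 was called lower in NPCs, by 1.19-fold. The fit on RPKM gave 0.12 ± 0.31 and -0.24 ± 0.06.

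The 3′ part of Ptbp1 is overlapped on the other strand by Plppr3, a gene of neuronal membranes, over 4297 bases. Plppr3 had 238, 248 and 54 reads in ESCs and 4135, 4278 and 4980 reads in NPCs, so that all NPC samples were above all ESC samples. Ptbp1 itself had 20787, 22763 and 9086 reads in ESCs and 16436, 14450 and 17711 in NPCs. The sample labels name a library kit that does not keep the strand, the study's methods name one that does, and the use of strand in counting is not given. Reads of Plppr3 counted for Ptbp1, or the reverse, therefore could not be separated.

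Ptbp2, the paralog of developing neurons, lies on chromosome 3 from 119718742 to 119784466. Its level was 6.38, 5.84 and 3.46 in ESCs and 24.1, 23.0 and 24.3 in NPCs. Every NPC sample was above every ESC sample, and the lowest NPC sample was more than 3 times the highest ESC sample. On recovered reads Ptbp2 rose by 2.24 ± 0.24 on the log2 scale, or 4.71-fold, with a limma adjusted p of 0.000156. The rise was 1.96 ± 0.06, or 3.90-fold, without ESC replicate 3. In the fit on log2(RPKM + 1) it was 1.33 ± 0.10, with an adjusted p of 3.91e-05, and a pseudocount of 0.1 in place of 1 gave 2.08.

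The relation of the paralogs was measured within each sample. The log2 ratio of Ptbp2 to Ptbp1 per exon base was -4.33, -4.61 and -4.17 in ESCs and -2.26, -2.28 and -2.25 in NPCs. The groups did not overlap, and the NPC samples lay close together (SD 0.0145, n = 3). The ratio was 2.11 higher in NPCs with all samples and 2.21 higher without ESC replicate 3, and the two-sided exact permutation test over samples gave p = 0.10, the smallest that 3 against 3 samples allow. In every sample Ptbp1 remained the more abundant of the pair per exon base. Ptbp2 made up 3.77%, 3.25% and 4.23% of the summed level of Ptbp1, Ptbp2 and Ptbp3 in ESCs and 15.0%, 14.9% and 15.2% in NPCs.

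Ptbp3, a paralog best known from blood cells, is not among the 10 and was measured beside them. Its level was 34.2, 31.8 and 16.1 in ESCs and 21.6, 19.6 and 19.6 in NPCs. As for Ptbp1, the NPC samples lay between ESC replicate 3 and the other ESC samples. Its log2 difference on recovered reads was -0.35 ± 0.29, with a limma adjusted p of 0.298, and without ESC replicate 3 it was called lower at -0.70 ± 0.06.

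Elavl1, the broadly expressed Elavl protein, which binds AU-rich elements and stabilises mRNA, lies on chromosome 8 from 4285382 to 4325413. Its level was 16.3, 16.8 and 18.7 in ESCs and 15.9, 15.4 and 15.4 in NPCs. All NPC samples were below all ESC samples, by a margin smaller than the range of the ESC samples. The log2 difference on recovered reads was -0.15 ± 0.11, with a limma adjusted p of 0.272, and without ESC replicate 3 it was -0.09 ± 0.05, with 0.0975. Elavl1 was thus not called with or without that sample.

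Elavl2, a neuronal Elavl protein that is also known from germ cells, lies on chromosome 4 from 91250763 to 91400785. Its level was 6.48, 6.50 and 4.295 in ESCs and 2.34, 2.14 and 2.22 in NPCs. It was the member that ran against the others of its kind, with every ESC sample above every NPC sample. On recovered reads it fell by 1.34 ± 0.18 on the log2 scale, or 2.53-fold, with a limma adjusted p of 0.000531. The log2 difference was -1.54 ± 0.07, or 2.90-fold lower, when ESC replicate 3 was left out.

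Elavl3, an Elavl protein of neurons, lies on chromosome 9 from 22015005 to 22052023. It had 33, 27 and 31 reads in ESCs and 967, 742 and 1049 reads in NPCs, which gave levels of 0.141, 0.116 and 0.146 in ESCs and 4.65, 3.95 and 4.71 in NPCs. Reads were few but present in every ESC sample, and the groups were far apart. On recovered reads Elavl3 rose by 5.03 ± 0.19 on the log2 scale, or 32.6-fold, with a limma adjusted p of 1.37e-06, and it had the largest difference of the 10 members. The ratio of its summed reads per M reads was 33.3, with an exact Clopper-Pearson 95% interval of 27.0 to 41.5 that covers counting error only. Leaving out ESC replicate 3 gave 5.09 ± 0.27, and quantile normalization gave 3.89. A gene model on the same strand, Gm49318, shares 15644 bases of the span of Elavl3, and its reads could not be told from those of Elavl3.

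Elavl4, an Elavl protein of differentiating neurons, lies on chromosome 4 from 110203722 to 110351909. Its level was 0.327, 0.286 and 0.314 in ESCs and 4.02, 3.42 and 3.47 in NPCs. All NPC samples were above all ESC samples, and ESC replicate 3 lay between the other ESC samples. On recovered reads Elavl4 rose by 3.54 ± 0.16 on the log2 scale, or 11.7-fold, with a limma adjusted p of 2.43e-06. Quantile normalization gave 2.35. Its reads were 60, 52 and 52 in ESCs and 653, 502 and 603 in NPCs, and the ratio of reads per M reads was 11.8 with an interval of 10.0 to 13.9.

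Within the Elavl family the restricted members made up a larger share in NPCs. Elavl2, Elavl3 and Elavl4 together held 29.8%, 29.1% and 20.3% of the family's summed level per exon base in ESCs and 40.9%, 38.1% and 40.3% in NPCs. On deposited RPKM, which counts introns in the length, the same share was 8.59%, 8.27% and 5.41% in ESCs and 21.7%, 19.7% and 22.0% in NPCs, a difference of 13.7 percentage points (two-sided exact permutation p = 0.10, the smallest possible). The groups did not overlap on either scale. The make-up of the share differed too: Elavl3 and Elavl4 alone held 2.01%, 1.70% and 1.96% of the family per exon base in ESCs and 32.2%, 29.5% and 31.7% in NPCs. In ESCs Elavl2 was the most abundant of the restricted members, and in NPCs it was the least abundant.

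Nova1, a neuronal protein that binds YCAY clusters in pre-mRNA, lies on chromosome 12 from 46694517 to 46818929. Its level was 1.24, 1.08 and 1.03 in ESCs and 3.14, 2.88 and 3.37 in NPCs. All NPC samples were above all ESC samples, with ESC replicate 3 close to replicate 2. On recovered reads Nova1 rose by 1.49 ± 0.13 on the log2 scale, or 2.80-fold, with a limma adjusted p of 4.74e-05. Leaving out ESC replicate 3 gave a rise of 1.44 ± 0.11, and quantile normalization gave 0.81.

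Nova2, the paralog known from the cortex, lies on chromosome 7 from 18925888 to 18965319. Its level was 1.45, 1.27 and 0.384 in ESCs and 2.298, 1.99 and 2.08 in NPCs. The groups did not overlap, and ESC replicate 3 was the sample farthest from the rest. On recovered reads Nova2 rose by 1.23 ± 0.46 on the log2 scale, or 2.35-fold, with a limma adjusted p of 0.0444. Without ESC replicate 3 the rise was 0.64 ± 0.10, or 1.56-fold, and was still called (adjusted p 0.000113). The call with all ESC samples was near the threshold: it was lost with quantile normalization, where the log2 difference was 0.34, and when any 1 NPC sample was left out, where it stayed at 1.17 to 1.28, and over the 9 alternatives the adjusted p ran from 0.000113 to 0.395.

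The log2 ratio of Nova2 to Nova1 per exon base was 0.23, 0.24 and -1.43 in ESCs and -0.45, -0.53 and -0.69 in NPCs. In ESC replicates 1 and 2 Nova2 was the more abundant, and in ESC replicate 3 and all NPC samples Nova1 was. The difference in the mean ratio was -0.24, with a two-sided exact permutation p of 0.80, and without ESC replicate 3 it was -0.80. A change in the balance of the pair was therefore not shown with all samples, and the value rested on 1 library.

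Rbfox2, the Rbfox protein of stem cells and many tissues, which binds UGCAUG in introns, lies on chromosome 15 from 77078990 to 77307004. Its level was 28.5, 28.7 and 14.1 in ESCs and 38.3, 36.2 and 35.96 in NPCs. Every NPC sample was above every ESC sample, and ESC replicate 3 was the lowest. The log2 difference on recovered reads was 0.71 ± 0.29, which was not called (limma adjusted p 0.0597). On log2(RPKM + 1) it was 0.34 ± 0.12 and was called (adjusted p 0.0419). Without ESC replicate 3 Rbfox2 was called on both scales, at 0.36 ± 0.05 on recovered reads (1.29-fold) and 0.20 ± 0.03 on RPKM. On recovered reads it was also called when ESC replicate 1 or 2 was left out (0.87 and 0.88), with quantile normalization (0.77) and with the replicate number as a block (0.71). On RPKM the call was lost when any 1 NPC sample was left out (0.32 to 0.35), with a pseudocount of 0.1 (0.63), with no filter and with no trend (both 0.34), and with quantile normalization the direction turned, at -0.02. The sign of a higher level in NPCs was thus shared by all recovered-read fits, and the call was not.

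The paralogs of Rbfox2 were rare. Rbfox3, the neuronal antigen NeuN, had 3, 2 and 1 reads in ESCs and 235, 176 and 241 reads in NPCs. Its ratio of reads per M reads was 119, with a 95% interval of 54.6 to 327 that covers counting error only. It met the filter of 10 reads only in NPCs, so no test of it is given. As a description, its fitted log2 difference was 6.65 with all samples, 6.38 without ESC replicate 3 and 4.57 with quantile normalization. Rbfox1, a neuron and muscle gene, had no recovered reads and stood between 4.87e-05 and 5.39e-05 RPKM in ESCs and between 0.00313 and 0.00353 RPKM in NPCs. These are RPKM over a very long gene, and no test was made.

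Srrm4, the neural SR-related protein that promotes microexons, lies on chromosome 5 from 116439275 to 116591817. Its level was 0.585, 0.489 and 0.202 in ESCs and 1.90, 1.86 and 2.07 in NPCs. All NPC samples were above all ESC samples, and ESC replicate 3 was the lowest of all. On recovered reads Srrm4 rose by 2.31 ± 0.34 on the log2 scale, or 4.94-fold, with a limma adjusted p of 0.000752. The rise was 1.86 ± 0.13, or 3.63-fold, when ESC replicate 3 was left out, and 1.24 with quantile normalization. The reads behind it were 173, 143 and 54 in ESCs and 498, 439 and 579 in NPCs. An antisense gene, Srrm4os, overlaps 26213 bases of its span, and the limit on strand given for Ptbp1 holds here too.

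Srrm3, a related promoter of microexons, had 7, 10 and 1 reads in ESCs and 141, 119 and 138 reads in NPCs. The ratio of its reads per M reads was 24.3, with a 95% interval of 15.2 to 41.4, and as it did not have 10 reads in every ESC sample, no test of it is given. Its fitted log2 difference, as a description, was 4.88 with all samples, 4.09 without ESC replicate 3 and 2.85 with quantile normalization. The broadly expressed relatives differed less. Srrm1 had a level of 64.2, 61.0 and 28.9 in ESCs and 66.0, 75.5 and 74.1 in NPCs, with a log2 difference on recovered reads of 0.57 ± 0.31 that was not called. It was called without ESC replicate 3 (0.20 ± 0.06) and with quantile normalization (0.71). Srrm2, without recovered reads, stood at 37.4, 36.9 and 13.1 RPKM in ESCs and 53.0, 59.1 and 57.2 RPKM in NPCs, and rose by 1.07 ± 0.39 (limma adjusted p 0.0464), or by 0.59 ± 0.06 without ESC replicate 3. The call of Srrm2 was lost when any 1 NPC sample was left out (log2 difference 1.03 to 1.11), with no filter (adjusted p 0.0721) and with no trend (adjusted p 0.0508), both at 1.07.

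**Figure D2:**
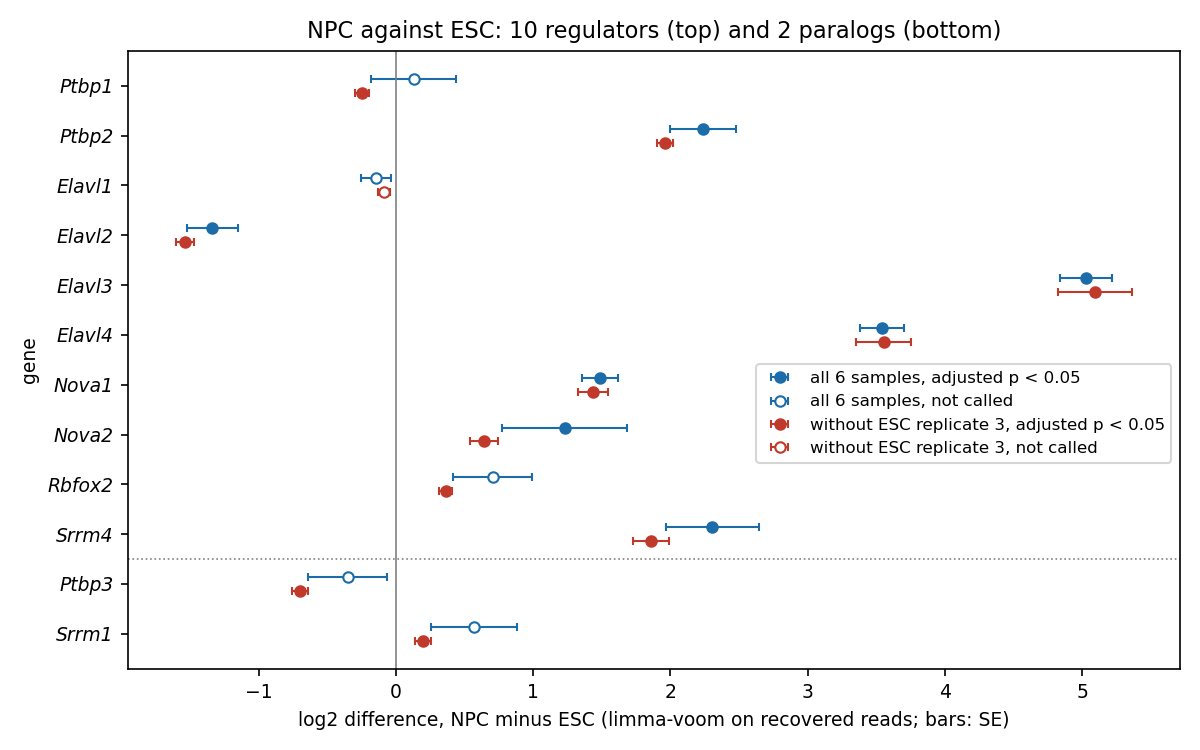
Log2 difference between NPCs and ESCs on recovered reads (x axis; bars, SE) for the 10 members above the dotted line and the paralogs Ptbp3 and Srrm1 below it (y axis), with all 6 samples in blue and without ESC replicate 3 in red; filled points passed an adjusted p of 0.05. Elavl3 had 5.03 with and 5.09 without that sample, whereas Ptbp1 changed its direction, from 0.13 to -0.25.

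The scaling of the samples moved the median difference, and the members unequally. The median log2 difference over all genes on recovered reads was 0.40 with the total of reads as the scale, 0.26 with median-ratio scaling and -0.14 with quantile normalization. With the last, 4642 genes were called higher and 5533 lower, against 6258 and 3755. The differences of Elavl3, Elavl4, Srrm4, Ptbp2, Nova1, Nova2 and Rbfox2 lay above the median of 0.40, and those of Ptbp1, Elavl1 and Elavl2 below it. Under these scalings of the reads the 6 members that rose stayed above 0 and Elavl2 below 0. With quantile normalization, however, the log2 differences of Elavl3, Elavl4, Srrm4, Nova1 and Nova2 were smaller (3.89, 2.35, 1.24, 0.81 and 0.34), whereas those of Ptbp1 (0.33) and Rbfox2 (0.77) were larger and that of Ptbp2 (2.13) moved little. On the RPKM scale the median was 0.02, with 0.17 under median-ratio scaling, under which Elavl1 turned from -0.12 to 0.05. With quantile normalization on that scale the median was -0.06. It gave 2670 genes called higher and 2991 lower, and median-ratio scaling gave 3382 and 2067, against 2894 and 2606.

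Other regulators of splicing were described by lists. Of 24 further cell type restricted splicing regulators, such as the Celf, Mbnl, Khdrbs and Esrp families, 18 were tested on recovered reads, 14 rose and 1 fell, with a median log2 difference of 1.63. Over all genes tested, 46.4% rose and 27.8% fell, with a median of 0.40. Of the 14 in the list that rose, 3 met the filter only in NPCs and are no support for a direction. Of the 15 with at least 10 reads in every sample, 11 rose and 1 fell, with a median of 1.41, beside 40.2% and 28.9% of all genes of that kind and a median of 0.19. Leaving out ESC replicate 3, 12 of the 15 rose and 3 fell, with a median of 0.87, beside 47.2% and 39.5% and a median of 0.12. In the fit on RPKM, 10 had at least 1 RPKM in every sample, 4 rose and 1 fell, beside 22.7% and 38.4% of all genes of that kind, and without that sample 6 rose and 4 fell, beside 31.4% and 52.9%. Tia1, which promotes exons with weak splice sites, rose by 1.96 ± 0.18 on that scale, and Msi1, a translation regulator of neural progenitors, rose by 1.47 ± 0.11, while Rbm38 fell by 0.37, a call lost without ESC replicate 2 (-0.35) or NPC replicate 1 (-0.28) and with median-ratio scaling (-0.21). Raver1, a partner of Ptbp1 and the most abundant of the list by RPKM in 4 of the 6 samples (Matr3 in the others), stood at 12.8, 14.6 and 7.88 RPKM in ESCs and 10.9, 12.4 and 12.1 RPKM in NPCs. It was not called with all samples (0.04 ± 0.21) and was called lower without ESC replicate 3 (-0.20 ± 0.07), which is the same turn as in Ptbp1.

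General splicing factors were described in the same way. Of 35 SR and hnRNP proteins, 28 were tested on recovered reads, all with at least 10 reads in every sample, 6 rose and 9 fell, with a median log2 difference of -0.02, beside 40.2% and 28.9% of all genes of that kind and a median of 0.19. Leaving out ESC replicate 3, 9 rose and 13 fell, with a median of -0.07 beside 0.12. In the fit on RPKM, 33 had at least 1 RPKM in every sample, 7 rose and 10 fell (21.2% and 30.3%), beside 22.7% and 38.4% of all genes of that kind, and without that sample 8 rose and 15 fell, beside 31.4% and 52.9%. On that scale Hnrnph3 and Hnrnph1 rose by 1.41 and 0.84, the latter by 1.37 with quantile normalization. Hnrnpf and Srsf2 fell by 1.05 and 0.62, and Srsf2 stood at -0.42 with median-ratio scaling and was not called with quantile normalization (-0.10). Hnrnpa1, the most abundant by RPKM in NPCs, where in ESCs Pcbp1 was, rose by 0.40. The call was lost with the replicate number as a block (0.40, limma adjusted p 0.123) and when any 1 sample other than ESC replicate 3 was left out (0.36 to 0.43). The difference was larger with median-ratio scaling (0.61) and quantile normalization (1.07). Its level went from 235, 212 and 227 RPKM in ESCs to 296, 302 and 292 RPKM in NPCs.

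REST, the repressor of neuronal genes outside neurons, is known to repress Srrm4, and its own transcript fell. Rest stood at 18.3, 18.2 and 9.67 RPKM in ESCs and 6.94, 7.48 and 7.09 RPKM in NPCs, with every NPC sample below every ESC sample. It fell by 0.95 ± 0.24 on the log2 scale in the limma fit on RPKM (adjusted p 0.0111), and the difference was -1.24 ± 0.05 without ESC replicate 3. Of 13 genes of REST and its cofactors, 12 were tested on recovered reads, 6 rose and 3 fell, with a median log2 difference of 0.19, beside 40.2% and 28.9% of all genes with at least 10 reads in every sample, as these 12 had, and a median of 0.19. Leaving out ESC replicate 3, 6 rose and 4 fell, beside 47.2% and 39.5%. In the fit on RPKM 9 had at least 1 RPKM in every sample, 3 rose and 3 fell, beside 22.7% and 38.4% of all genes of that kind, and without that sample 3 rose and 4 fell, beside 31.4% and 52.9%. The phosphatase gene Ctdsp1 rose by 0.92 and Rcor1, which met the filter only in NPCs, by 0.92 (1.63 with a pseudocount of 0.1 and 0.60 with quantile normalization), while Hdac1 fell by 1.05. Rcor2, the most abundant by RPKM in NPCs and ESC replicate 3, where in ESC replicates 1 and 2 Rest was, rose by 0.40, a call lost without ESC replicate 1 or 2 or NPC replicate 2 or 3 (0.34 to 0.40) and larger with quantile normalization (0.72). Of 10 factors of nonsense-mediated decay, the pathway that degrades the exon-skipped form of Ptbp2, 10 were tested on recovered reads, all with at least 10 reads in every sample, 1 rose and 4 fell, with a median of -0.21, beside 40.2% and 28.9% of all genes of that kind and a median of 0.19. Leaving out ESC replicate 3, 1 rose and 6 fell, with a median of -0.40 beside 0.12. In the limma fit on RPKM 6 had at least 1 RPKM in every sample, 0 rose and 3 fell, beside 22.7% and 38.4% of all genes of that kind, and without that sample 0 rose and 5 fell, beside 31.4% and 52.9%. Those that fell with all samples included Smg5 (log2 difference -0.995) and Upf1 (-0.68). None of 5 host genes of neural microRNAs was in the tables.

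How the genes lie relative to the nucleolus was read from the NAD lists, which hold 1 score per domain for both experiments together and so carry no replicate error. NADs were mapped with a DNA methyltransferase fused to histone H2B with a nucleolar signal, over the same fusion without it. The fusions were carried by transgenic ESC lines, and by NPCs made from them, and were induced with doxycycline and Shield1. The RNAseq samples had no such induction, so positions and levels come from different cells. Of the 10 members, 6 overlapped a NAD of ESCs (Ptbp2, Elavl1, Elavl2, Elavl4, Nova1 and Rbfox2), beside 26.9% of 21597 genes. The same 6 overlapped a NAD of NPCs, beside 21.4%. Long genes can overlap more, and among the 12936 genes within the members' range of spans the shares were 29.4% and 23.8%. That range ran from 10.3 kb (Ptbp1) to 228 kb (Rbfox2), so these genes were not matched to the members in length. The part of length in the overlap was not tested. With the transcription start as the measure, Ptbp2, Elavl1, Elavl4 and Nova1 lay in a NAD in both cell types, beside 23.4% of all genes in ESCs and 18.7% in NPCs.

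Ptbp2 lay wholly in a NAD of ESCs on chromosome 3 from 119699376 to 120600098 (score 0.0213) and wholly in a NAD of NPCs from 118599788 to 119800007 (score 0.0479). Nova1 lay wholly in a NAD of 1299 kb in ESCs (score 0.0193) and of 5.50 Mb in NPCs (score 0.0386). Both genes rose in NPCs while inside a listed domain in each cell type. Elavl2, which fell, had nearly all of its length in a NAD of 201 kb in each cell type, with scores of 0.0775 in ESCs and 0.0520 in NPCs. The scores were normalised separately in the cell types, and no difference between them was tested.

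Elavl4 lay wholly in a NAD in both cell types (scores 0.0362 and 0.0485). Elavl1 had 62.3% of its length in a NAD of ESCs and all of it in a NAD of 5.30 Mb in NPCs. Rbfox2 had 87.5% in ESCs and 43.8% in NPCs. The other 4 members lay outside the NADs of both lists. The nearest NAD was 754 kb from Ptbp1 in ESCs and 355 kb in NPCs, and 248 kb and 1.52 Mb from Elavl3. Nova2 lay 926 kb and 826 kb away, and Srrm4 lay 5.11 Mb and 6.24 Mb away. Members that rose thus lay both inside and outside the listed domains.

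Promoters were searched for the left and the right part of the REST element on both strands, from 250 bases before to 50 bases after each start in RefSeq (GRCm38.p6). The table held 24 promoters of 14 of the members and paralogs. CAGCACC was in 7.14% of all 32851 promoters and in 0 of these 24. GGACAG was in 22.2% of all promoters and in those of Elavl2 and Ptbp2. Both parts 2 bases apart were in 12 promoters of the table (0.0365%), none of them of these genes. At that share, a lack of hits in 24 promoters cannot tell these genes from others. Sequence outside these windows and inexact matches to the 2 parts were not searched.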

How the data were processed

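RNAseq was read in 3 ESC and 3 NPC samples. The authors deposited RPKM per gene for each sample; the length was found from the values to be end minus start of the gene in GENCODE M21. The study's methods name STAR for alignment, whereas the submitters' notes list Bowtie2 and Subread. The authors also deposited NAD lists with a score for each domain. Positions of the NADs are in other units, deposited as bases of GRCm38 with starts counted from 0, and are printed 1 higher.

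Reads were recovered as RPKM times span times depth. They were kept where they were whole within 0.05 reads plus 1e-05 of the reads in all 6 samples. Depth was 34.1 M, 33.7 M, 30.8 M, 30.2 M, 27.3 M and 32.3 M reads in ESC replicates 1 to 3 and NPC replicates 1 to 3. The planned test was limma 3.58.1 in R 4.3.3 (lmFit, eBayes with trend) on log2(RPKM + 1) for genes with at least 1 RPKM in at least 3 samples, with Benjamini-Hochberg adjustment over all genes tested. The fit on recovered reads was limma-voom on genes with at least 10 reads in at least 3 samples. It is among 8 alternatives added after seeing the data, as is the exon scale. Ratios and shares were compared with two-sided exact permutation tests over samples. Tables were read with pandas 2.3.3 under Python 3.11.15, ratios and intervals were computed with numpy 2.4.6 and with scipy 1.17.1, and plots were drawn with matplotlib 3.10.9. Fits were tested on simulated data, for which no results are given here.

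The members and lists were chosen with earlier results of these data known. From each other list, the genes named were up to 2 called genes with the largest rise, up to 2 with the largest fall and the most abundant one, in the fit on RPKM. Pax6, Dcx, Plppr3, Vim, Pecam1, T, Pcbp1, Matr3, Actb and Gapdh were named after their values were seen. The alternatives were other pseudocounts, filters and scalings, the replicate number as a block, each sample left out in turn, and other definitions of overlap with a NAD. The DamID and ChIPseq reads were not used.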

Additional observations from a re-analysis of the deposited data

How the results depend on the processing

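The log2 ratio of Ptbp2 to Ptbp1 (1.96 to 2.21), the share of Elavl2 to Elavl4 (12.4 to 14.4 percentage points over the alternatives on RPKM, 13.3 per exon base and 10.3 per exon base without ESC replicate 3) and the log2 differences of Ptbp2, Elavl2, Elavl3, Elavl4, Nova1 and Srrm4 on recovered reads kept their direction under all alternatives run, with the calls of these 6 genes. The count of 5500 called genes on RPKM was 11454 with no filter, 10013 with limma-voom on recovered reads, 11062 with that and no filter, and 4616 to 6884 with 1 sample left out. The replicate number as a block gave 5214. The 2 members called higher became 1 with a pseudocount of 0.1, with quantile normalization and with no trend, 6 with no filter, 6 with limma-voom on recovered reads and 6 with that and no filter, and 1 to 2 with 1 sample left out. The 0 called lower became 1 with no filter, 1 with limma-voom and 1 with limma-voom and no filter, and 0 to 1 with 1 sample left out. More members were tested without the filter or on reads; otherwise the cause was not tested.

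The difference in the log2 ratio of Nova2 to Nova1 was 0.0243 with 0.1 RPKM added and ran from -0.80 to 0.0389 with 1 sample left out. With 1 sample left out, Ptbp1 ran from -0.24 to 0.34 on RPKM and from -0.25 to 0.35 on recovered reads, and Raver1 from -0.20 to 0.21, each with the negative value without ESC replicate 3. Elavl1 turned to 0.0529 with median-ratio scaling, and Rbfox2 to -0.0230 with quantile normalization on RPKM. The cause was not tested. Members overlapping a NAD numbered 4 in both cell types by transcription start (23.4% and 18.7% of all genes in ESCs and NPCs), and 4 in ESCs and 5 in NPCs among NADs whose score reached the median of their list (16.3% and 12.2%).

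For members and paralogs, 81 of 98 alternatives on RPKM and 113 of 126 on recovered reads kept direction and side of the threshold; for the other named genes 391 of 406 did.

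Depth limits Elavl3, Rbfox3 and Srrm3 in ESCs, where they had 91, 6 and 18 reads in all. The reads are recovered from RPKM and were not given as counts. With 3 samples in each group, exact permutation tests cannot go below p = 0.10. The median difference of all genes depends on the scaling, so small differences such as that of Rbfox2 have no firm zero.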
